A study of Danio rerio with 7 samples.

Results

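The 50 regions described here are the differentially accessible chromatin peaks of zebrafish embryos whose nearest promoter belongs to *gata4*, *gata5*, *gata6*, *hand2*, *nkx2.5*, *tbx5a*, *tbx20* or *tbx2b*, 8 genes for transcription factors of the developing heart. They were chosen from 44025 listed peaks by the gene symbol that the deposited table prints for the nearest promoter, and 7 of the 8 genes had at least 1 peak. Chromatin accessibility was measured by ATAC-seq, in which a transposase cuts and tags DNA that is not covered by nucleosomes, in cells sorted from wild type Tg(Kdrl:GFP)s843 embryos at 26 to 27 hpf (hours post fertilisation), with 40000 to 50000 cells per library. The labels give 3 libraries of *kdrl*:GFP+ cells, 3 of *kdrl*:GFP- cells and 1 genomic DNA control of 30000 cells from embryos at 28 to 30 hpf. In this line the *kdrl* promoter, that of a VEGF receptor gene, drives GFP in endothelium, and by the study's methods the *kdrl*:GFP+ cells were the brightest part of the GFP-positive cells of pooled embryos. By those methods the dimmer GFP-positive cells were in neither population. The *kdrl*:GFP- cells come from the whole embryo and from many tissues, so a level in them is an average over these, and a smaller share of cells with an open region cannot be told apart from less accessibility per cell. The table holds 1 mean concentration per population and peak, the log2 of the mean normalized reads of the authors' comparison, and no value per library. Where a pair of values is given for a peak without naming the populations, that of *kdrl*:GFP+ cells comes before that of *kdrl*:GFP- cells. The spread between libraries and their depth are therefore unknown, a difference between concentrations carries no error, and no test was run. The methods describe fewer *kdrl*:GFP+ and more *kdrl*:GFP- libraries in that comparison than the labels list. The study reports that outlying *kdrl*:GFP+ replicates were removed beforehand, so each *kdrl*:GFP+ mean rests on few libraries. Which of the labelled libraries these are could not be worked out. The table lists only peaks that passed the authors' threshold for a difference, so regions equally open in both populations are not part of the data.

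The heart of the zebrafish forms from mesoderm at the sides of the embryo, and its inner lining, the endocardium, is an endothelium and expresses *kdrl*. Gata4, Gata5 and Gata6 are zinc finger proteins that bind GATA motifs and act early in heart and endoderm formation. The other members encode the homeodomain protein Nkx2.5, the basic helix-loop-helix protein Hand2 and the T-box proteins Tbx5a, Tbx20 and Tbx2b. Genes of this kind often lie among many enhancers, which can be far from the promoter or inside the introns of a neighbouring gene, so the nearest promoter is a label of position and does not show which gene a peak acts on.

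Peaks near endothelial and neural marker genes separated the populations in the direction of the sort. Of 59 peaks nearest to 7 endothelial markers, 53 had their greater value in the *kdrl*:GFP+ population. The same held for 8 of 83 peaks nearest to 5 neural markers and for 44.7% of all listed peaks. The endothelial markers *tie1* and *pecam1* had no listed peak. The planned check also covered skeletal muscle markers, with 1 of 4 peaks higher in *kdrl*:GFP+ cells, and erythroid markers, with 1 of 1. At heart muscle genes it was 9 of 20, close to the share of all listed peaks, so these genes did not separate the populations.

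The peaks of the cardiac factors pointed in both directions. In the *kdrl*:GFP+ population 25 of the 50 had the greater mean concentration and 25 the smaller, against 44.7% higher among all listed peaks. A log2 difference (*kdrl*:GFP+ minus *kdrl*:GFP-) above 3, which is more than 8-fold before the log, was found at 7 of the 50, against 17.8% of all listed peaks, and a difference below -3 at 6, against 13.3%. The log2 differences ran from -6.68 to 5.70. Their median was -0.07, against -1.19 over all listed peaks, but no listed peak has a log2 difference closer to 0 than 0.76, so the median of an even split falls in an empty range. The 25 higher peaks had a median log2 difference of 2.08 and the 25 lower ones a median of -2.16, against 2.53 and -2.08 over all higher and all lower peaks. By gene, *gata4*, *gata5*, *nkx2.5* and *tbx20* had more higher than lower peaks, and *hand2*, *tbx5a* and *tbx2b* had more lower ones. These majorities depended on which peaks were counted. Among all listed peaks within 100 kb of the gene model, whatever their nearest promoter, 3 of 7 were higher at *gata4*, 4 of 9 at *nkx2.5* and 8 of 15 at *tbx5a*, which turned the majority at each of these genes. Within 20 kb of the promoter, the only own peak of *hand2* was higher and that of *gata4* was lower, and *gata4* had 1 higher and 1 lower peak at a concentration of at least 5 in either population. The genes hold very unequal numbers of peaks, 23 of the 50 being those of *tbx2b*. Without *tbx2b*, 16 of 27 peaks were higher, the median log2 difference was 0.92, and 3 peaks lay past the log2 difference of 3 in each direction.

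**Figure D1:**
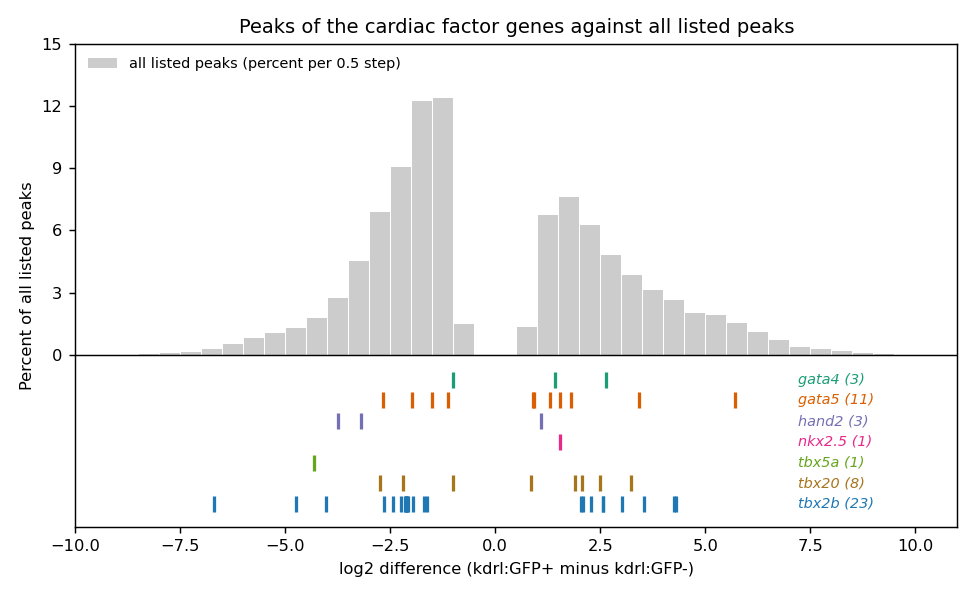
Grey bars give the percent of all 44025 listed peaks in each step of the log2 difference of mean concentration (*kdrl*:GFP+ minus *kdrl*:GFP-), and each coloured tick is 1 peak of a cardiac factor gene, with the number of peaks per gene in brackets. The ticks fall on both sides of the empty range around 0, from -6.68 to 5.70, and *gata4*, *gata5*, *hand2*, *tbx20* and *tbx2b* each have ticks on both sides.

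Of *gata4*, *gata5* and *gata6*, *gata5* had the most listed peaks. Its 7 exons span 7453365 to 7464565 of chromosome 23 (plus strand) in the Zv9 assembly. It had 11 peaks, 7 of them higher in *kdrl*:GFP+ cells, with log2 differences from -2.68 to 5.70. The largest belonged to an intergenic peak of 334 bp at 7470347 to 7470681, which is 17.1 kb from the promoter start and 5.78 kb past the 3′ end of the gene. Its mean concentration was 6.40 in *kdrl*:GFP+ cells and 0.69 in *kdrl*:GFP- cells, or 84.2 and 1.61 normalized reads, a 52.1-fold difference. Of all listed peaks, 96.4% had a smaller log2 difference. The level in *kdrl*:GFP- cells is close to the lowest that the table gives for that population, 1.16 normalized reads, so the fold rests on a value near that floor. Its level in *kdrl*:GFP+ cells was not unusual, being above that of 63.8% of listed peaks.

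The other *gata5* peaks changed direction along the locus. At the promoter itself, a peak at 7452911 to 7453530 that overlaps 166 bp of exon 1 was modestly higher in *kdrl*:GFP+ cells, with concentrations of 7.04 and 6.14 and a log2 difference of 0.90. Immediately upstream the direction was the opposite. The peak 1.60 kb from the start had a concentration of 2.62 in *kdrl*:GFP+ cells against 5.30 in *kdrl*:GFP- cells, and the next, at 3.16 kb, had 5.13 and 6.64. A gap of 865 bp separates the promoter peak from the nearer of these. Further upstream, at 13.2 kb, the concentration was again higher in *kdrl*:GFP+ cells, 6.45 against 4.64. On the 3′ side 5 of 7 peaks were higher. The farthest, 62.1 kb from the start at 7515290 to 7515731, had concentrations of 7.98 and 4.56, a log2 difference of 3.42 or 10.7-fold. The peaks at 36.3, 40.4 and 50.9 kb were higher by 0.92, 1.30 and 1.54 on the log2 scale, and those at 48.9 and 55.3 kb had log2 differences of -1.13 and -1.99. No listed peak lay in an intron of *gata5*.

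*gata4* had 3 peaks and was the only member with a listed peak in an intron of its own. Its 6 exons span 53586379 to 53602069 of chromosome 20 (minus strand). The intron 1 peak, at 53592644 to 53593444, was strongly open in both populations. Its concentration was 8.03 in *kdrl*:GFP+ cells against 9.02 in *kdrl*:GFP- cells, or 261 and 520 normalized reads, the greater value being that of the latter. These levels were above those of 88.6% and 95.5% of listed peaks in the respective population. The remaining peaks are upstream and higher in *kdrl*:GFP+ cells. At 27.2 kb (53628933 to 53629562) the concentrations were 8.57 and 5.93, or 379 and 61.1 normalized reads, a 6.20-fold difference. At 22.7 kb they were 3.98 and 2.56, both low, with 15.7 and 5.88 normalized reads.

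No listed peak had *gata6* as its nearest promoter, by the printed symbol or by the current symbol of the RefSeq accession. In Zv9 the *gata6* gene model, with 10 exons, lies on an unplaced scaffold (number 3540, 164745 to 174290). The table lists 0 peaks on that scaffold and 0 on any scaffold, so the absence of *gata6* says nothing about its accessibility in either population.

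*hand2* encodes a basic helix-loop-helix factor needed for heart muscle precursors and for the pharyngeal arches and pectoral fins. Its 2 exons span 38602518 to 38604378 of chromosome 1 (minus strand). The promoter peak at 38604237 to 38604650, which covers 142 bp of an exon, had a *kdrl*:GFP+ concentration of 6.05 and a *kdrl*:GFP- concentration of 4.95, which differ by 1.10 on the log2 scale. The remaining *hand2* peaks, both upstream, went the other way and by more. At 29.4 kb the concentrations were 3.57 and 6.76, or 11.9 and 108 normalized reads, 9.10-fold higher in *kdrl*:GFP- cells. At 76.7 kb they were 1.62 and 5.37, or 3.07 and 41.3 normalized reads, 13.5-fold higher in *kdrl*:GFP- cells. In *kdrl*:GFP+ cells that level was above that of only 5.75% of listed peaks, so this fold rests on a low value. The promoter of *hand2* and the regions upstream of it thus differed in opposite directions.

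*nkx2.5*, a homeobox gene of cardiac progenitors and ventricular muscle, had a single peak. It lies 2.55 kb upstream of the start, on chromosome 14 at 25238171 to 25238541, and the gene runs from 25240905 to 25243698 on the plus strand. The concentration was 5.95 in *kdrl*:GFP+ cells against 4.42 in *kdrl*:GFP- cells, or 62.0 and 21.5 normalized reads, a 2.89-fold difference. Of all listed peaks, 63.9% had a smaller log2 difference, and the peak lay below the lower quartile of 1.70 of all higher peaks.

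*tbx5a*, which is required for heart and pectoral fin development, also had a single peak, and its level in *kdrl*:GFP+ cells was near the low end of the table. It is intergenic on chromosome 5, at 75509883 to 75510304, 58.4 kb from the promoter start and beyond the 3′ end of the gene, which runs from 75451685 to 75482049 on the plus strand with 11 exons. The concentration was 1.22 in *kdrl*:GFP+ cells against 5.54 in *kdrl*:GFP- cells, or 2.32 and 46.5 normalized reads, 20.0-fold higher in *kdrl*:GFP- cells. Of all listed peaks, 4.76% had a lower log2 difference. No listed peak overlapped the *tbx5a* gene itself.

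*tbx20*, a T-box gene of the heart, had 8 peaks, 5 of them higher in *kdrl*:GFP+ cells, and all of them lie at or upstream of the promoter. Its 9 exons span 45280170 to 45294886 of chromosome 16 (minus strand). The promoter peak at 45294623 to 45295155 had concentrations of 7.34 and 6.48, a log2 difference of 0.86, the smallest absolute difference among the 50 peaks. Upstream of it the directions alternated within a few kilobases. At 5.04 kb the concentrations were 2.73 in *kdrl*:GFP+ cells against 5.48 in *kdrl*:GFP- cells, and at 7.07 kb they were 6.95 and 3.71. In normalized reads the former peak had 6.61 and 44.6 and the latter 123 and 13.1, so that regions 1633 bp apart differed 6.74-fold in one direction and 9.41-fold in the other. The peak at 7.07 kb (45301765 to 45302148) had the largest difference of the locus, 3.23 on the log2 scale.

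Farther from *tbx20*, peaks at 12.3, 31.1 and 34.3 kb were higher in *kdrl*:GFP+ cells, with log2 differences of 2.07, 2.49 and 1.90, and the peak at 17.8 kb was lower, with -2.20. The peak at 58.8 kb was the strongest of the locus in both populations, with concentrations of 8.08 and 9.09 and a log2 difference of -1.01. It resembled the intron 1 peak of *gata4* in being highly open in both populations and higher in *kdrl*:GFP- cells, here 2.01-fold.

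**Figure D2:**
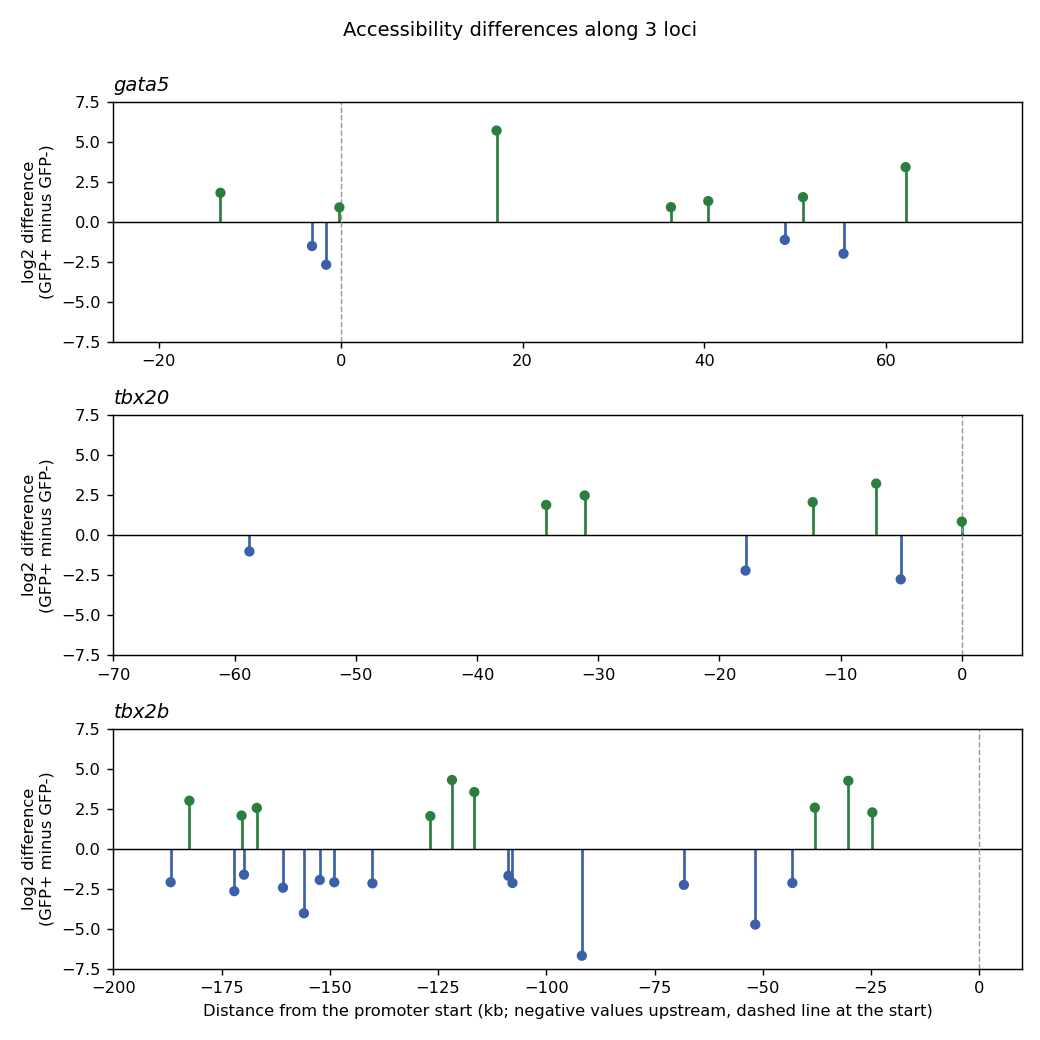
Each line is 1 listed peak at its distance from the promoter start in kb (x axis, negative values upstream), and its height is the log2 difference of mean concentration (y axis), in green where *kdrl*:GFP+ cells were higher and blue where *kdrl*:GFP- cells were. Higher and lower peaks lie along *gata5*, *tbx20* and *tbx2b*, and those of *tbx2b* all lie 24.7 kb or more from its promoter.

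*tbx2b*, a T-box repressor that holds back chamber muscle differentiation at the atrioventricular canal, had 23 peaks, and 141 of the 9030 genes with a listed peak had at least as many. Its 7 exons span 26713286 to 26720220 of chromosome 15 (plus strand). None of its peaks was at the promoter or in the gene. All lie upstream, 24.7 to 187 kb from the start, inside the neighbouring gene *bcas3* (26276832 to 26703646), whose end is 9.64 kb before the start of *tbx2b*. By the authors' annotation they are in intron 22 or 23 of *bcas3*, and none overlapped a *bcas3* exon. The *bcas3* gene holds 33 listed peaks in all, and 10 of them are nearer to the *bcas3* promoter.

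Of the 23 peaks, 9 were higher in *kdrl*:GFP+ cells, 39.1% against 45.7% among all intronic listed peaks. Up to 161 kb from the promoter, neighbouring peaks fell into runs of one direction. The 3 peaks within 40 kb of the promoter were all higher. The 6 peaks from 43.2 to 109 kb were all lower, the 3 from 117 to 127 kb all higher and the 5 from 140 to 161 kb all lower. From 167 kb on, 3 of 6 were higher and neighbours alternated. In all, 9 of the 22 pairs of neighbours (40.9%) differed in direction. Over the 8 genes it was 22 of 43 pairs (51.2%), against 32.6% of all pairs of neighbouring listed peaks with the same nearest promoter. The limits of these runs were drawn after the directions were seen.

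The largest difference of the locus was in the run of lower peaks nearest the promoter. At 91.8 kb (26621237 to 26621759) the concentration was 0.65 in *kdrl*:GFP+ cells against 7.34 in *kdrl*:GFP- cells, or 1.57 and 162 normalized reads, 103-fold higher in *kdrl*:GFP- cells. Only 0.470% of listed peaks had a lower log2 difference than its -6.68. The *kdrl*:GFP+ level of this peak is close to the lowest given for that population, so its fold and rank rest on a value near that floor. At 51.7 kb (26661371 to 26661749) the concentration in *kdrl*:GFP+ cells was -0.36, the lowest given for that population (0.779 normalized reads), against 4.37 in *kdrl*:GFP- cells. It is the only one of the 50 peaks at the lowest value of either population, and its log2 difference of -4.73 rests on that value. Another region, at 156 kb, had concentrations of 2.63 and 6.67, a log2 difference of -4.03.

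Among the higher peaks of *tbx2b*, those at 122 kb (26591109 to 26591865) and 30.2 kb (26682801 to 26683308) had nearly the same values. The concentrations were 7.75 and 3.46 at the former and 7.56 and 3.31 at the latter, with log2 differences of 4.30 and 4.25. The peak at 117 kb had 6.64 and 3.09. The most open in *kdrl*:GFP+ cells, at 182 kb (26530475 to 26531171), had a concentration of 8.92, the highest of the 50 peaks in that population, against 5.91 in *kdrl*:GFP- cells. In *kdrl*:GFP- cells the highest of the 50 was at 161 kb, with 9.26 against 6.83 in *kdrl*:GFP+ cells. Peaks of opposite direction came as close as 103 bp, at 170 kb, where a region with 6.06 in *kdrl*:GFP+ cells against 3.99 in *kdrl*:GFP- cells lay beside one with 5.23 and 6.84.

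**Figure D3:**
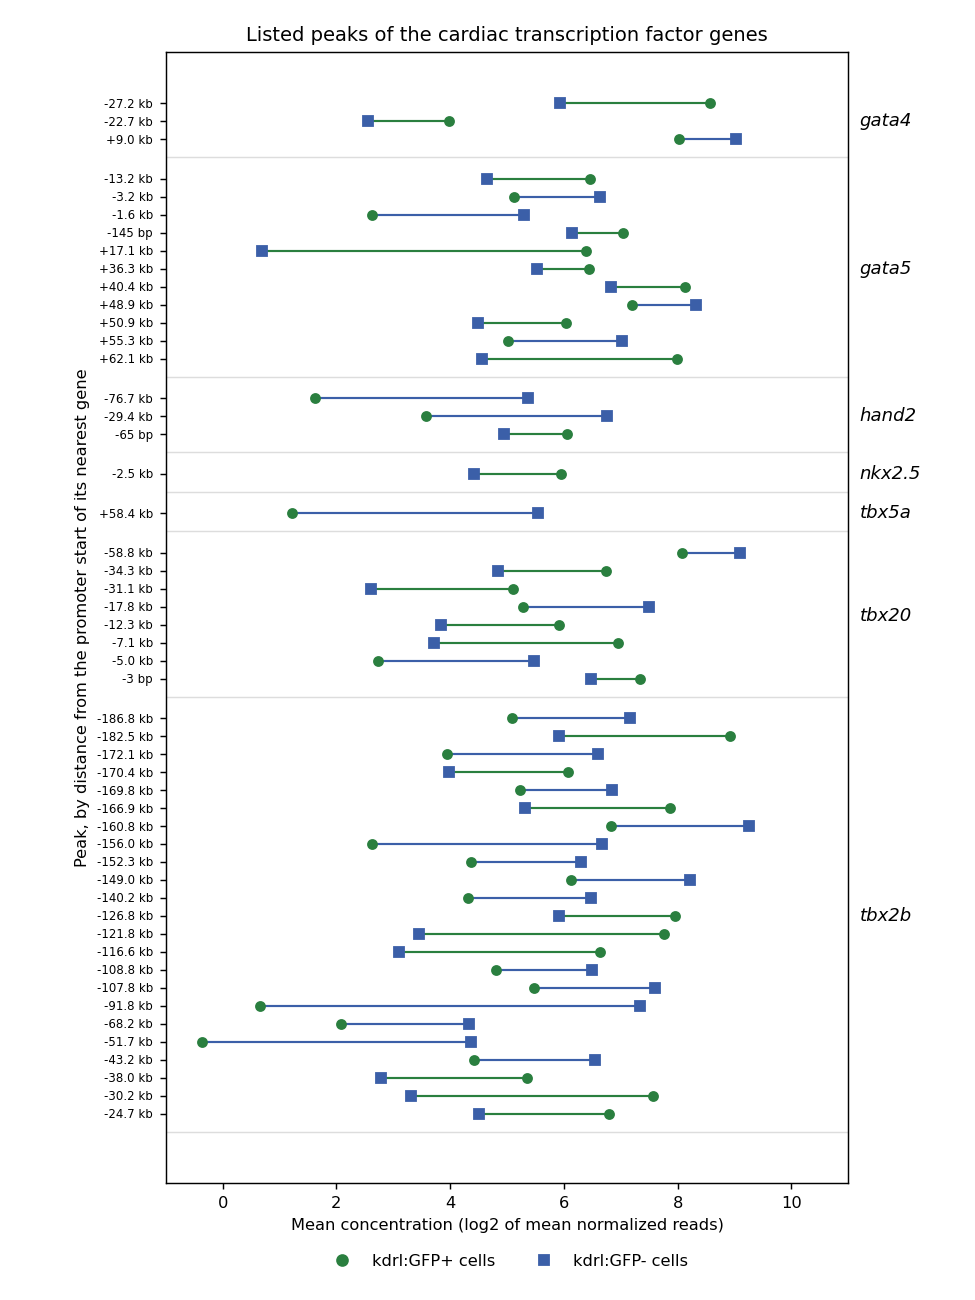
Each row is 1 of the 50 peaks, labelled with its distance from the promoter start of its nearest gene. The circle gives the mean concentration in *kdrl*:GFP+ cells and the square that in *kdrl*:GFP- cells (x axis, log2 of mean normalized reads, 1 authors' mean per population with no error bar), joined by a green line where *kdrl*:GFP+ cells are higher and a blue one where *kdrl*:GFP- cells are. The long lines at *gata5* (17.1 kb) and *tbx2b* (91.8 kb) end near the lowest concentrations, while the promoter peaks of *gata5*, *hand2* and *tbx20* have short green lines.

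The peaks were also compared by position. Listed promoter peaks existed for 3 members, *gata5*, *hand2* and *tbx20*, and all 3 were higher in *kdrl*:GFP+ cells, with log2 differences of 0.90, 1.10 and 0.86. Among all 899 listed promoter peaks 43.0% were higher, and the median log2 difference of those was 1.84, so each of the 3 lay below the lower quartile of 1.21. Of the 23 intergenic peaks 13 were higher (42.9% of all intergenic listed peaks were), and of the 24 intronic peaks 9 (45.7% of all intronic listed peaks). The intronic peaks are nearly those of a single gene, since 23 of them, with all 9 higher ones, are the *tbx2b* peaks inside *bcas3*. Within 20 kb of a promoter, 8 of 13 peaks were higher, against 48.8% of all listed peaks at that distance. Beyond 20 kb 17 of 37 were (45.9%), close to the 44.7% of all listed peaks at any distance. The 25 lower peaks had a median distance of 68.2 kb and the 25 higher ones of 31.1 kb. Over all listed peaks these distances were 46.7 and 37.0 kb. The members' distances depend on *tbx2b*, which holds 14 of the lower peaks (median 145 kb) and 9 of the higher ones (median 122 kb). In width the 50 peaks had a median of 506 bp, against 501 bp over all listed peaks.

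Ordered by the median log2 difference, *nkx2.5* stood first with 1.53, followed by *gata4* with 1.42, *tbx20* with 1.38 and *gata5* with 0.92, and then *tbx2b* with -1.95, *hand2* with -3.19 and *tbx5a* with -4.32. The order rests on 1 peak for *nkx2.5* and for *tbx5a* and on 3 for *gata4* and *hand2*. The ranges of *gata4*, *gata5*, *hand2*, *tbx20* and *tbx2b* overlapped. The genes whose median concentrations in the 2 populations were nearest to those of *nkx2.5*, among 3055 genes with at least 5 listed peaks, were *zgc:101810*, *cul1b* and *hmgcrb*, at distances of 0.031 to 0.072 on the log2 scale. For *tbx5a* they were *plxna4*, *pdgfra* and *atp2b3b*, at 0.69 to 1.00. This likeness covers 2 population means and a single peak of either member.

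Peaks of other heart genes also lay in both directions. Of 162 peaks nearest to 23 of 27 other cardiac regulators, 83 were higher (51.2%) in the *kdrl*:GFP+ population, against 44.7% of all listed peaks. Their median log2 difference was 0.85. Every peak was higher at 4 of these genes, *foxh1*, *hopx*, *nkx2.3* and *wt1a*, with 1 to 3 peaks each, and every peak was lower at 6. Those 6 included *isl1*, a LIM homeobox gene of heart progenitors and motor neurons, with 8 peaks, and *tbx4*, downstream of *tbx2b*, with 4. The others were *srfb* with 4 peaks and *nkx2.7*, *smarcd3b* and *tbx5b* with 2 each. Among genes for MADS-box factors, 13 of 16 peaks of *mef2cb* and 6 of 7 of *mef2ca* were higher. At *mef2aa* it was 12 of 24, at *mef2d* 3 of 5 and at *srfb* 0 of 4. Among the genes with most peaks, the largest log2 difference was 6.85 at *mef2aa*, where the *kdrl*:GFP- value was the lowest listed, 6.89 at *mef2cb* and 4.46 at *tbx1*. The most negative at these genes was -6.37 at *mef2aa*, -2.59 at *mef2cb* and -3.96 at *tbx1*. Among the members' T-box relatives, 5 of 13 peaks of *tbx2a* were higher, 6 of 16 of *tbx1*, 4 of 6 of *tbx3a*, 2 of 4 of *tbx18* and neither of those of *tbx5b*.

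Of 88 peaks nearest to 9 of 11 endocardial and valve genes, 57 were higher (64.8%), with a median log2 difference of 1.78. They included 10 of 11 peaks of *nfatc1*, 8 of 9 of *has2* and 8 of 9 of *klf2a*, and 13 of 26 of *fn1a* and 4 of 12 of *notch1b*. At *spns2* 7 of 8 were higher, at *klf2b* 5 of 9, at *bmp6* 2 of 2 and at *nrg1* 0 of 2. The other GATA genes had 20 of 36 higher (55.6%). Over all listed peaks the share was 44.7%. *gata2a* with 7 of 14 and *gata3* with 12 of 21 had peaks in both directions, and the single peak of *gata1a* was higher, by 4.95.

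Genes of heart muscle, a cell type that should be in the *kdrl*:GFP- population, had 20 listed peaks at 9 of 20 genes. Of these peaks, 9 were higher in *kdrl*:GFP+ cells (45.0%), close to the 44.7% of all listed peaks. Whether each gene is restricted to heart muscle was not tested. All 3 peaks of *myl7* and the single peaks of *tnnt2a*, *nppa* and *myh6* were higher. All 5 of *actc1a* and the single peak of *atp2a2a* were lower, and 1 of 3 was higher at *cmlc1*, 1 of 3 at *myl4* and 1 of 2 at *tnni1b*. No listed peak had *vmhc* as its nearest promoter. Whether heart muscle cells were present among the sorted *kdrl*:GFP+ cells, and what part they have in the peaks of the cardiac factors, was not tested.

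**Figure D4:**
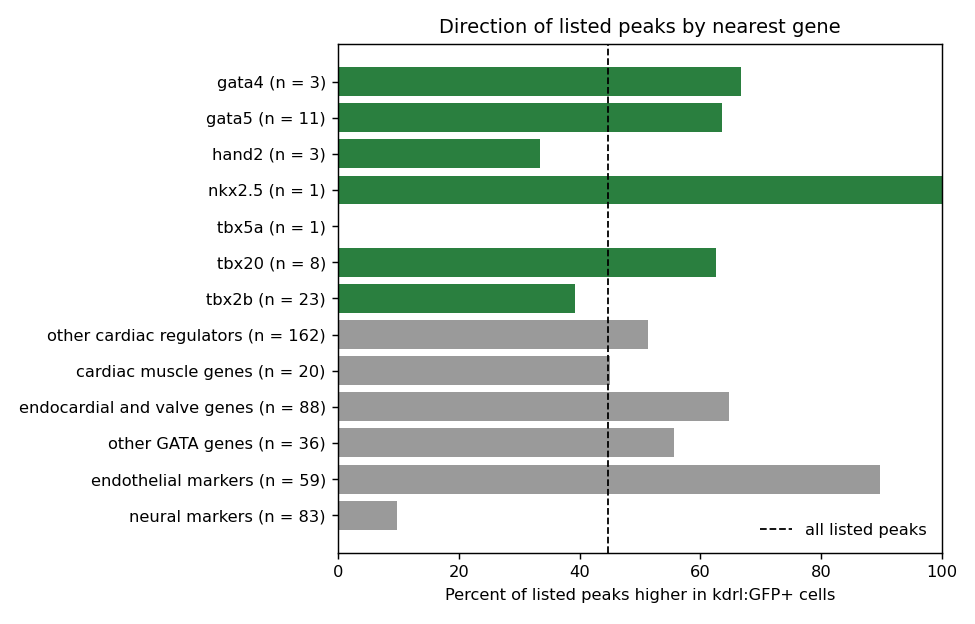
Bars give the percent of listed peaks with the greater value in *kdrl*:GFP+ cells, with the number of peaks in brackets, for 7 cardiac factor genes (green) and for 6 other gene lists (grey). The dashed line is the 44.7% of all listed peaks. Bars of 1 or 3 peaks can take few values, *tbx2b* lies at 39.1%, and endothelial and neural marker genes lie at 89.8% and 9.64%.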

How the data were processed

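Libraries were labelled as *kdrl*:GFP+ cells (3), *kdrl*:GFP- cells (3) and genomic DNA (1). Per the labels and the study's methods, the authors trimmed (Trimmomatic 0.32) and aligned the reads (BWA 0.7.12, Zv9), called peaks against the genomic DNA, and compared the populations with DiffBind (edgeR method). Read shifting, duplicate removal and library scaling are not given in the sources used here. They could change the concentrations. In the deposited table the authors give each population's mean concentration on a log2 scale. The deposited fold and p-value columns, which hold the authors' own comparison, were not used. Differences were recomputed from the concentrations.

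A second deposited table supplied gene models on Zv9. Its 6 columns of values per sample (WT, Mo) match no sample of the series and were not used, nor were its columns of a comparison. Gene models spanning over 1 Mb were left out of overlaps. Coordinates are the tables' own.

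Members and gene lists were chosen with earlier results of these data known. All members are named. For each, the extreme peaks, the peak nearest the promoter and the promoter peaks were described, the intronic peaks of *tbx2b* mostly by counts and ranges. From other lists the genes with most peaks were named. Added after their values were seen were *isl1*, *tbx4*, *mef2ca*, *mef2d*, *srfb*, *foxh1*, *hopx*, *nkx2.3*, *wt1a*, *tbx2a*, *tbx3a* and *tbx5b*. So were *has2*, *klf2a*, *klf2b*, *spns2*, *bmp6*, *nrg1*, *myl7*, *tnnt2a*, *nppa*, *myh6*, *atp2a2a* and *tnni1b*. The same holds for *nkx2.7*, *smarcd3b* and *tbx18*. Peaks near skeletal muscle markers (1 of 4 higher) and erythroid markers (1 of 1) were also counted. No p-values were computed, since no value per library was used. Intervals over the 50 peaks (95%) served only to sort alternatives by how far a share or median moved, and are not errors of the measurements. Current symbols came from a RefSeq gene table of a later assembly, used for names only. Counting was tested on simulated data. Planned motif and protein descriptions were not analysed here. Python 3.11.15, numpy 2.4.6, pandas 2.3.3, scipy 1.17.1 and matplotlib 3.10.9 were used.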

Additional observations from a re-analysis of the deposited data

How the results depend on the processing

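Matching by printed or current symbol, which can only add peaks, gave the same values in every result. By current symbol alone there were 49 member peaks in place of 50. Within 100 kb of a promoter 4 of 34 peaks had a log2 difference above 3, against 6436 of all 33406 listed peaks at that distance. Within 20 kb there were 13 peaks, with 2 above 3 and 0 below -3, against 2732 and 1622 of all 13420 listed peaks there. A log2 difference of 2 in place of 3 gave 15 peaks above and 17 below, and one of 1 gave 22 and 24. The quartiles of the log2 difference were -2.15 and 2.08 over the 50 peaks, against -2.21 and 2.29 over all listed peaks. Only 1.35% of all listed peaks had a difference from 0.5 to 1, and 1.47% one from -1 to -0.5. The counts past 1 thus nearly repeat those of higher and lower peaks, and neither cut-off sets the members apart from all listed peaks. Chosen after seeing the data, peaks within 100 kb of a member's gene model with any nearest promoter numbered 76. Also chosen after seeing the data, the set without *tbx2b* had 27 peaks, with 3 above 3 and 3 below -3. Of all listed peaks 17.8% were above 3 and 13.3% below -3. The share of higher peaks ran from 47.4 to 61.5% over the alternatives. The median log2 difference moved between -0.98 and 0.92, from one side of the empty range around 0 to the other. Leaving out the peak at the lowest concentration, or the 3 peaks under a concentration of 5 in both populations, moved the median to 0.86. The latter left *gata4* with 1 higher and 1 lower peak, so that 3 genes in place of 4 had more higher than lower peaks. Counts of higher peaks in single genes moved by over 1.5 times in 10 cases and stayed within that in 38. Leaving out libraries, another scaling or a paired comparison could not be run on means of populations. Depth is unknown, so levels near the lowest concentration cannot be ranked. This touches the *gata5* peak at 17.1 kb and the *tbx2b* peaks at 51.7 and 91.8 kb. It also touches the *tbx5a* peak, the *hand2* peak at 76.7 kb and the peaks of other promoters described below whose *kdrl*:GFP- value was the lowest listed.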

Other observations

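Around the members, further listed peaks lie within 100 kb of a gene model but have another nearest promoter. There were 42 of these, 17 of them (40.5%) higher in *kdrl*:GFP+ cells, against 44.7% of all listed peaks. This set was defined after the members' peaks had been seen. Of these, 3 had a larger positive log2 difference than any of the members' own peaks. An intergenic peak on chromosome 16 at 45389625 to 45390268, 94.7 kb upstream of *tbx20* and assigned to *dpy19l1l*, had a *kdrl*:GFP+ concentration of 8.63, and its *kdrl*:GFP- value was the lowest listed (0.22), a log2 difference of 8.41. A peak in an intron by the authors' annotation, 79.0 kb downstream of *nkx2.5* and assigned to *hnrnpa0a*, had 7.75 against the same lowest value, a difference of 7.53. An intronic peak assigned to *galnt7*, 42.5 kb downstream of *hand2*, had 6.74 against that value, a difference of 6.52. Below that maximum, an intergenic peak 78.8 kb downstream of *gata4*, assigned to *ctsbb*, had 9.94 and 4.39, a difference of 5.54.

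Within 100 kb of *tbx5a* 14 peaks belonged to other promoters and 8 were higher, among them the exonic and intronic peaks assigned to *tbx3a*, with log2 differences of 1.66, 2.05 and 1.09. The 6 lower ones included intergenic peaks assigned to *tbx3a*, with -1.72 and -2.02. The largest difference of the 14 was -3.20, at a peak 30.1 kb downstream assigned to *zgc:77391*, with concentrations of 1.43 and 4.62. On the 3′ side of *tbx2b* there were 4, all assigned to *tbx4* and all lower, with log2 differences from -2.16 to -1.35. Which gene any of these peaks acts on was not tested.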
